A study of Caenorhabditis elegans with 12 samples.

Results

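The C-type lectin genes of Caenorhabditis elegans, named clec with a number, were described across 12 expression arrays. A gene was a member where the array annotation gave it a probe set of its own and its symbol began with clec and a number, and the brightest such probe set stood for the gene. This gave 220 of the 17118 genes with a probe set of their own, from 236 probe sets, and 15 members had more than 1. A further 15 clec genes were on probe sets shared by several genes and were not used here. The RefSeq gene table (assembly WBcel235) listed 264 clec genes in all, 239 of them protein coding. Of the members, 202 were protein coding and 18 were pseudogenes in that table. Chromosome V held 77 members, chromosome II 47, chromosome IV 45, chromosome I 31, chromosome III 17 and the X chromosome 3.

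Each array measured total RNA of a worm lysate as biotinylated cRNA. All worms carried egl-15::gfp and pRF4, a transformation marker. The strain here called HLH also carried pHS::hlh-2 and pHS::hlh-8, which the other, here called the marker strain, lacked. The labels give 1 strain of each kind, so everything else that differs between those lines is part of the strain difference, and no source used here gives the worms' age. Codes 1 and 2 of the array titles belonged to the HLH strain and codes 3 and 4 to the marker strain, with 3 arrays each. The design included heat shock and 3 biological replicates of each kind, but the labels do not say which codes were heat shocked, so codes are compared as codes. The first number of a title, here called the set, runs from 1 to 3. One HLH array of code 2 repeated the title of another with a 2 in brackets, so its set is uncertain, and it was left out wherever sets entered a fit. All tests below are on these 12 arrays, and their number limits the precision.

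C-type lectins share a fold first described in proteins that bind sugars in a calcium-dependent way, though many family members bind other ligands or have lost the calcium site. In C. elegans the family is large, many of its proteins carry a secretion signal, and several of its genes are known from studies of intestinal infection by bacteria. For most single clec genes no function is firmly established, so roles are given only where they are. hlh-8 encodes the worm homolog of the mesodermal factor Twist, and hlh-2 encodes its E protein partner.

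The construct genes followed the labels. The signal of hlh-8 was 707.7 to 4842.8 on HLH arrays and 130.0 to 200.7 on marker arrays, a log2 difference of 3.74 (limma, adjusted p = 1.3e-07). Within the HLH strain hlh-8 read 707.7 to 1359.5 on code 1 arrays and 3793.5 to 4842.8 on code 2 arrays, with no overlap. The labels do not tie that split to heat shock, and its cause was not tested. The brighter hlh-2 probe set read 528.9 to 1508.2 on HLH arrays and 167.6 to 334.4 on marker arrays (log2 difference 1.88, limma adjusted p = 0.0014). Array medians ran from 180.3 to 208, and the authors' scaling had set the 2% trimmed mean to 500.1 on each array. Same-set arrays of different groups deviated together from their group means in all 15 pairs, with correlations across probe sets of 0.31 to 0.79, against -0.69 to 0.53 in the 30 pairs from different sets. The sets therefore pair the arrays, and values with the set as a replicate block are given where they change a call.

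Most clec genes were dim. Signals lay above the array median in 25.1% of member values, against 50.3% over all genes, and the median of the members' mean signals was 71.6 against 203 for all genes. On all 12 arrays 33 members were above the median, 32 were above it on 3 to 11 arrays, 11 on 1 or 2, and 144 on none. A gene was tested if it was above the median on at least 3 arrays, which held for 65 members (29.5%) and for 9416 genes in all (55.0%). The 155 members not tested had mean signals of 3.77 to 167, with a median of 50.9 and the highest in clec-71, and their highest single signal was 343.5. The filter can be passed by 1 side of a comparison alone: clec-28 and clec-61 were above the median on marker arrays only and clec-184 on HLH arrays only. A further case was 10 tested members above it on no set 2 array, the array of uncertain set not counted.

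**Figure D1:**
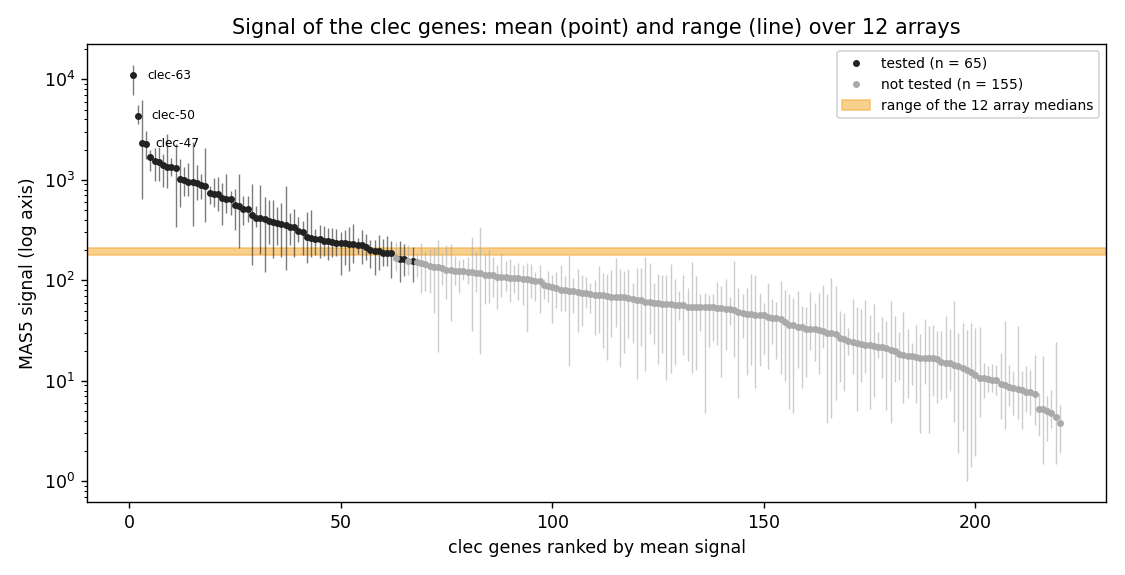
Mean MAS5 signal (point, log axis) and range over 12 arrays (line) of the 220 clec genes in rank order, tested members in black, untested ones in grey, with the 3 brightest named and the band of array medians from 180.3 to 208 shaded. The means run from 10969.4 for clec-63 down to 3.77, and the 65 tested members lie toward the upper end, with some untested ones such as clec-71 ranked among them.

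A few members were among the bright genes. clec-63 was the brightest, with a mean signal of 10969.4 and a range of 7057.6 to 13912.9 over the 12 arrays. Its group means were 9232 ± 2585 and 10474 ± 1694 for HLH codes 1 and 2, and 11667 ± 2462 and 12504 ± 1747 for marker codes 3 and 4 (SD, n = 3 each), and these ranges overlap. Next came clec-50 with a mean signal of 4348.3, clec-47 with 2303.2, clec-1 with 2286.1, clec-51 with 1684.5, clec-5 with 1548.3, clec-83 with 1498.6 and clec-180 with 1409.1. Signals of different probe sets do not rank the genes by transcript number, because probe sets differ in efficiency. Of the members' probe sets 189 were of the plain kind, while 29 had the suffix s and 2 the suffix x, which mark probes that can match other transcripts. clec-61, clec-83, clec-160, clec-5, clec-41, clec-50 and clec-65 were read by probe sets of the s kind.

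Of the 65 tested clec genes 9 were lower in the HLH strain than in the marker strain, and 0 were higher (limma, adjusted p under 0.05). They were clec-61, clec-82, clec-60, clec-54, clec-72, clec-86, clec-160, clec-83 and clec-230, in order of size. That is 13.8% of the tested members, where 1.7% of all tested genes were lower and 1.13% were higher. The members' share includes clec-61, which was above the array median on marker arrays only and so entered the test through that strain alone. At an unadjusted p under 0.05, 19 members were lower and 3 were higher, where 7.76% of all tested genes were lower and 8.67% higher. The median log2 difference, HLH minus marker, was -0.15 over the tested members and 0.04 over all tested genes, and 46 members were below 0. After quantile normalization the median of the members was -0.19, with 47 below 0 and again 9 lower and 0 higher. Over all 220 members without a filter, 126 differences were below 0 with a median of -0.06, against 0.02 over all genes.

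Among the 9 genes clec-61, which is on the list of infection studies, had the largest log2 difference. Its signal on the 6 HLH arrays was 125.7 at the lowest, 147.8 at the median and 195.4 at the highest, and on the 6 marker arrays 409.1, 511.4 and 869.5. Every marker array lay above every HLH array, with group means of 561 ± 174 and 155 ± 29.0 (SD, n = 6). The log2 difference was -1.83 ± 0.20 (SE), which is 3.55-fold lower, with limma adjusted p = 0.0003. clec-82 read 172.9 and 155.4 on the HLH arrays of set 1, 143.2 and 149.0 on those of set 2, 315.0 on that of set 3, and 336.3 on the array of uncertain set. Its marker arrays read 712.7 and 914.0 in set 1, 764.0 and 721.9 in set 2, and 484.0 and 542.8 in set 3. No array of the strains overlapped, and the HLH arrays with the 2 highest signals were that of set 3 and that of uncertain set. The log2 difference of clec-82 was -1.77 ± 0.25 (SE), 3.40-fold lower, with limma adjusted p = 0.0024.

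clec-60 is known in C. elegans as a gene that rises when worms feed on Staphylococcus aureus. It read 373.1 and 488.6 on the HLH arrays of set 1, 342.6 and 435.3 on those of set 2, 1116.1 on that of set 3 and 1440.7 on the array of uncertain set. The marker arrays read 1911.2 and 2260.2, then 1928.8 and 1546.4, then 1772.2 and 1998.6, in sets 1, 2 and 3. All marker arrays were above all HLH arrays, but within the HLH strain the highest signal was several times the lowest. The log2 difference was -1.67 ± 0.33 (SE), 3.19-fold lower, with limma adjusted p = 0.016. Without either HLH array of set 1 the call was lost by a small margin, at limma adjusted p = 0.052 without code 1 and 0.051 without code 2.

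The other 6 genes differed by less than 2-fold. clec-54 averaged 188 ± 53.9 on HLH and 350 ± 77.7 on marker arrays (SD, n = 6), a log2 difference of -0.91 ± 0.17 (SE, limma adjusted p = 0.013). Its highest HLH signal of 290.3 passed its lowest marker signal of 272.5, so its arrays overlapped. clec-72 averaged 729 ± 156 and 1298 ± 279, with a log2 difference of -0.83 ± 0.18 (limma adjusted p = 0.028) and overlapping arrays. clec-86, also known from infection studies, averaged 273 ± 57.5 and 454 ± 96.9, with a log2 difference of -0.74 ± 0.18 (limma adjusted p = 0.047). clec-160 averaged 289 ± 48.4 and 459 ± 65.7, with a log2 difference of -0.67 ± 0.14 (limma adjusted p = 0.027). clec-83 averaged 1183 ± 189 and 1815 ± 265, with a log2 difference of -0.62 ± 0.14 (limma adjusted p = 0.032). In these 3 genes no HLH array reached any marker array. clec-230 averaged 741 ± 79.3 and 1134 ± 204, with a log2 difference of -0.60 ± 0.14 (limma adjusted p = 0.039), and its arrays overlapped.

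In 8 members (12.3%) every HLH array was below every marker array, against 1.74% of all tested genes. They were 6 of the 9 called genes together with clec-28 and clec-65, which missed the threshold. Of these, clec-61 and clec-28 entered the test through the marker arrays alone. clec-28 averaged 118 ± 17.1 on HLH and 191 ± 21.3 on marker arrays, a log2 difference of -0.71 (limma adjusted p = 0.055). clec-65 averaged 759 ± 116 and 1030 ± 56.1, a log2 difference of -0.45 (limma adjusted p = 0.058), while its second probe set gave -0.76 (limma adjusted p = 0.011). The second probe set of clec-72 was also lower in the HLH strain, at -0.60, but missed the threshold (limma adjusted p = 0.15). Leaving out any 1 array kept the calls of clec-61, clec-82 and clec-54. The other calls rested on more of the arrays: clec-160, clec-72 and clec-83 were each kept in 4 of 12 such fits, and clec-86 and clec-230 in 2 of 12, with limma adjusted p between 0.052 and 0.11 where lost. The number of members called then ran from 3, without the HLH code 1 array of set 1, to 10. It was 4 without the HLH code 2 array of set 1, without either HLH array of set 2 or without the marker code 4 array of set 3, and 5 without either marker array of set 1.

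**Figure D2:**
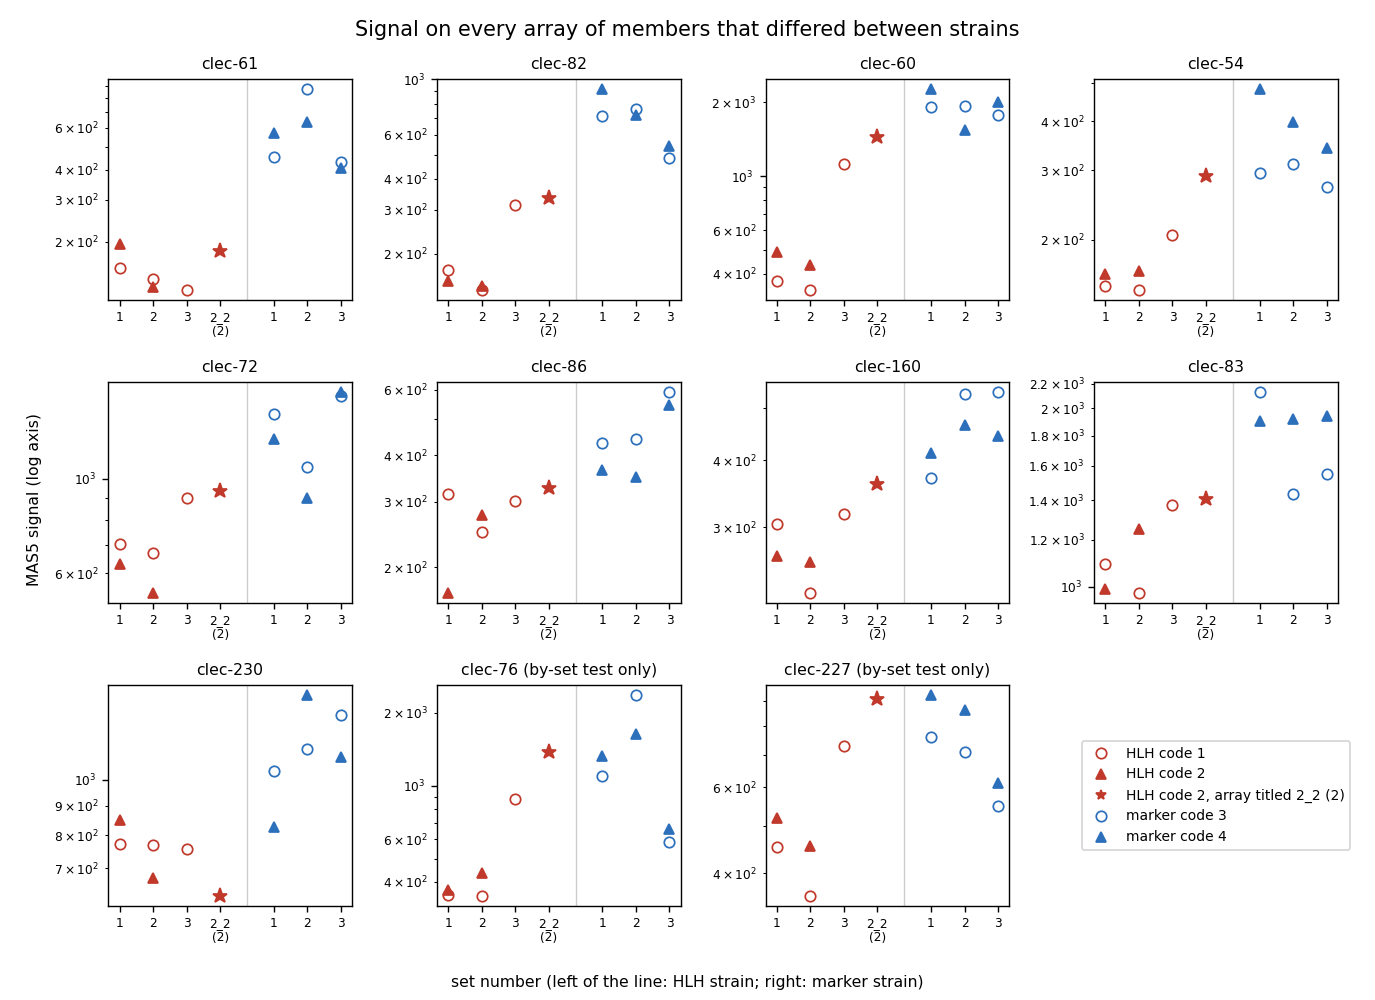
MAS5 signal (log axis, its own scale in each panel) on every array for the 9 clec genes lower in the HLH strain and for clec-76 and clec-227, placed by set, with HLH arrays left of the line, marker arrays right of it, symbols for the codes and a star for the array of uncertain set. In clec-61, clec-82, clec-60, clec-86, clec-160 and clec-83 the highest HLH array lies below the lowest marker array, and in the other 5 the arrays overlap.

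With the set as a replicate block, on the 11 arrays of known set, more members were called between the strains. Then 19 members (29.2%) were lower in the HLH strain and 3 (4.62%) were higher, against 7.55% and 6.86% of all tested genes. All 9 genes above stayed lower. The blocked log2 differences were -1.93 for clec-61, -1.97 for clec-82 and -1.86 for clec-60, with limma adjusted p of 2.9e-05, 9.2e-05 and 0.00018. The 10 added members that were lower were clec-67, clec-28, clec-47, clec-65, clec-76, clec-265, clec-56, clec-63, clec-5 and clec-66. clec-67, a gene of infection studies, gave -1.13 (limma adjusted p = 0.00013) with the block and -1.22 ± 0.30 (0.051) without it. clec-47 gave -1.70 (limma adjusted p = 0.003) with the block and -1.39 ± 0.36 (0.057) without it. The brightest member, clec-63, gave -0.29 (limma adjusted p = 0.014) with the block and -0.31 ± 0.15 (0.35) without it. The members higher with the block were clec-258 at 0.68, clec-184 at 0.52 and clec-180 at 0.47, with limma adjusted p of 0.0055, 0.039 and 0.04, and none of them was called without it. Of the members called with the block, clec-61 and clec-28 entered the test through the marker arrays alone, and clec-184 through the HLH arrays alone.

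The size of the strain difference was not the same in every set. This comparison was added after seeing the data: the strain difference was allowed to differ by set, and a moderated F test in limma asked whether it did, on the 11 arrays of known set. It called 4 of 65 members (6.15%), clec-76, clec-60, clec-82 and clec-227, where 0.807% of all tested genes were called. In set 3 the HLH strain had 1 array in this fit, which is assumed to vary like the others.

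clec-76 read 353.4 and 370.3 on the HLH arrays of set 1, 350.4 and 435.9 on those of set 2 and 880.4 on that of set 3. Its marker arrays read 1092.8 and 1321.7 in set 1, 2365.0 and 1629.8 in set 2, and 583.6 and 662.9 in set 3. The strains were thus far apart in sets 1 and 2, while in set 3 the HLH array was the highest of the 3. The log2 differences, HLH minus marker, were -1.73, -2.33 and 0.60 in sets 1, 2 and 3 (limma F test, adjusted p = 0.003). clec-227 had the same order at a smaller size: HLH arrays of 452.8, 518.5, 359.6 and 454.6 lay below marker arrays of 760.0, 926.9, 710.1 and 862.7 in sets 1 and 2. In set 3 its HLH array read 728.4 and its marker arrays 549.5 and 611.6. The log2 differences of clec-227 were -0.79, -0.95 and 0.46 (limma F test, adjusted p = 0.031).

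In clec-60 and clec-82 the difference kept its sign and was smaller in set 3. For clec-60 it was -2.28, -2.16 and -0.57 in sets 1, 2 and 3 (limma F test, adjusted p = 0.018). For clec-82 it was -2.30, -2.35 and -0.73 (limma F test, adjusted p = 0.028). By contrast clec-61 differed by -1.54, -2.46 and -1.69, and clec-72 by -0.99, -0.71 and -0.93, and for neither did the F test pass (limma adjusted p = 0.30 and 0.74). The array of uncertain set read 1440.7 for clec-60, 1372.7 for clec-76, 910.3 for clec-227 and 336.3 for clec-82, closer to the HLH array of set 3 than to those of sets 1 and 2. Placed in set 3, it gave 7 called members, the same 4 with clec-47, clec-7 and clec-56. With that array in set 3, the differences in sets 1, 2 and 3 were -1.67, -2.52 and 0.01 for clec-47 (limma F test, adjusted p = 0.028). They were -0.53, -0.39 and 0.47 for clec-7 and -0.46, -1.63 and -0.39 for clec-56 (limma F test, adjusted p = 0.034 and 0.035). Without the array the 3 genes did not pass, at limma adjusted p = 0.15, 0.14 and 0.073. Leaving out 1 array gave from 0 calls, without the HLH code 1 array of set 2, to 4, and clec-76 was kept in the other 9 of those 10 fits. Over the 65 tested members 25 were lower in the HLH strain in all 3 sets, the 9 called genes among them, 5 were higher in all 3 and 35 were mixed. The share over all tested genes was not counted. The 9 genes were called on these same arrays, so their agreement over sets is no separate support.

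**Figure D3:**
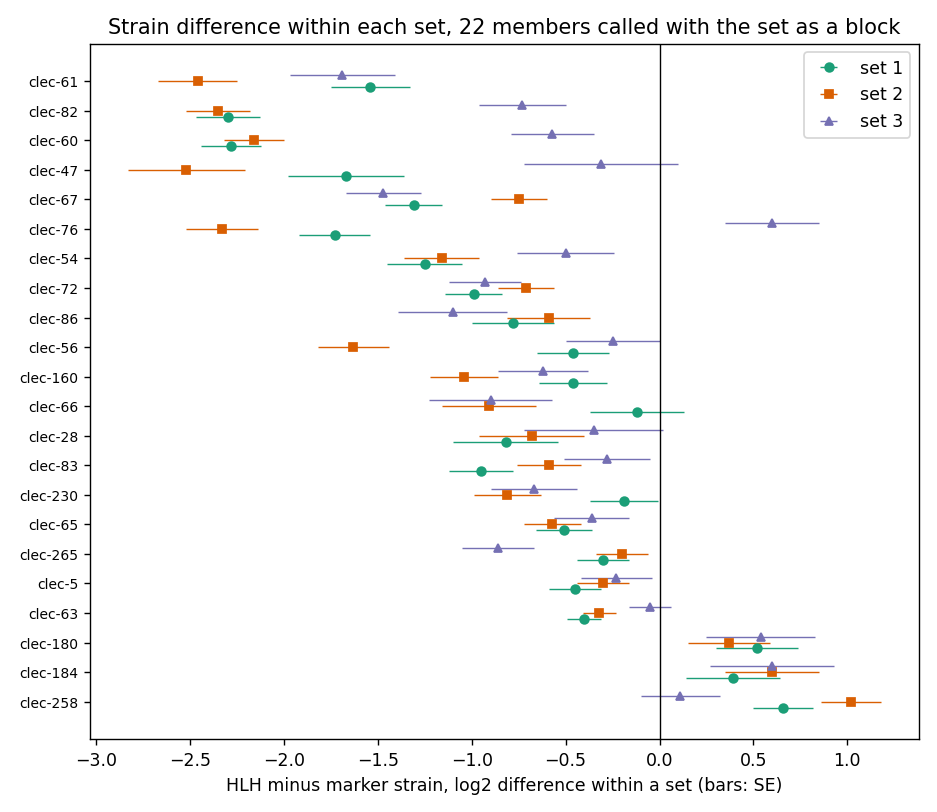
Log2 difference between the strains, HLH minus marker, within set 1, set 2 and set 3, for the 22 clec genes called with the set as a block, on the 11 arrays of known set, with bars of 1 SE. clec-76 is at -1.73 and -2.33 in sets 1 and 2 and at 0.60 in set 3, while clec-61 is below -1.5 in all 3 sets.

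The arrays of set 2 had lower signals of many clec genes. In a fit with the 4 groups and the set, on the 11 arrays of known set, 29 of the 65 tested members (44.6%) were lower in set 2 than in sets 1 and 3, and 0 were higher. Over all tested genes 17.5% were lower in set 2 and 24.3% were higher. Of the 29 members, 8 were among the 10 tested members that were above the array median on no set 2 array. On the arrays of known set they passed the filter through sets 1 and 3 alone: clec-43, clec-78, clec-91, clec-134, clec-147, clec-184, clec-233 and clec-241. The array of uncertain set, which the filter also used, read 208.3 for clec-43, 219.1 for clec-147 and 211.3 for clec-233, above every array median. Among the other 55 tested members 21 were lower. The median log2 difference was -0.25 over the members and 0.04 over all tested genes, and 50 members were below 0. At an unadjusted p under 0.05, 30 members were lower and 2 higher, a total of 32 of 65, where 21.4% of all tested genes were lower and 29.3% higher, a total of 50.7%. The members' total was thus near that of all genes. After quantile normalization the members' median was -0.28, and again 29 were lower and 0 higher. Over all 220 members without a filter the median was -0.15 and 150 differences were below 0, against a median of -0.01 over all genes.

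clec-52 and clec-41, both of the infection study list, had clear shifts. clec-52 read 272.1, 204.1, 274.0 and 168.3 on the set 2 arrays, and 397.7 at the lowest, 480.0 at the median and 623.9 at the highest on the 7 arrays of sets 1 and 3. Those ranges do not overlap, and the log2 difference was -1.05 ± 0.15 (SE, limma adjusted p = 0.00021). clec-41 read 316.1, 359.9, 396.5 and 335.2 in set 2 and 534.9, 740.0 and 817.7 at the lowest, median and highest in the others, again with no overlap. Its log2 difference was -0.97 ± 0.13 (limma adjusted p = 0.00015). clec-5 read 999.4, 982.1, 1141.6 and 1312.0 in set 2 and 1355.8 to 2056.2 in the others, a log2 difference of -0.68 ± 0.09 (limma adjusted p = 0.00019). clec-78 and clec-50 were the other members with no overlap, which makes 5 (7.69%), near the 7.02% of all tested genes that were lower in set 2 with no overlap. clec-78 averaged 170 ± 22.5 in set 2 (n = 4) and 257 ± 33.9 in the others (n = 7), a log2 difference of -0.60 (limma adjusted p = 0.0078). On the arrays of known set it passed the filter through sets 1 and 3 alone. clec-50, the second brightest member, read 3829.7, 3588.5, 3572.9 and 3685.0 in set 2 and 3945.5 to 5569.0 in the others, a log2 difference of -0.36 ± 0.07 (limma adjusted p = 0.0023).

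The largest shift was that of clec-56, at -1.07 ± 0.21 (limma adjusted p = 0.0017), though its arrays overlapped. It read 121.8 and 122.9 on the HLH arrays of set 2 but 274.6 and 522.8 on the marker arrays of that set, and 315.4 to 680.7 on the 7 others. clec-67 was lower in set 2 by -0.80 ± 0.13 on the log2 scale (limma adjusted p = 0.00051), and clec-174 and clec-134 by -0.72 and -0.71 (limma adjusted p = 0.0033 and 0.0026). The brightest member, clec-63, averaged 8837 ± 1432 in set 2 and 12029 ± 1924 in the others, a log2 difference of -0.46 ± 0.07 (limma adjusted p = 0.00031). After quantile normalization clec-63 and clec-50 both gave -0.18 and lost the call (limma adjusted p = 0.084 and 0.064). The smallest called shifts were those of clec-51 and clec-264, both at -0.28. Of the 9 genes lower in the HLH strain clec-72 was also lower in set 2, at -0.44, while clec-60, clec-61 and clec-82 gave -0.43, 0.29 and -0.08 with limma adjusted p of 0.14, 0.21 and 0.80. Leaving out the marker code 4 array of set 2 left 15 called members, and leaving out the marker code 3 array of that set left 17. Whichever array was left out, 13 members were still lower in set 2: clec-5, clec-41, clec-50, clec-52, clec-56, clec-63, clec-67, clec-72, clec-78, clec-87, clec-134, clec-174 and clec-265. Of these, clec-78 and clec-134 passed the filter through sets 1 and 3 alone on the arrays of known set. The second probe set of clec-87 was lower as well, at -0.46 (limma adjusted p = 0.0068). For clec-10 the probe set used was called, at -0.47 (limma adjusted p = 0.012), while its other gave -0.30 (limma adjusted p = 0.24). For clec-57 and clec-150 the probe sets used were not called, at -0.12 and 0.01 (limma adjusted p = 0.6 and 0.96). Their other probe sets passed, at -0.47 and -0.50 (limma adjusted p = 0.011 each).

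**Figure D4:**
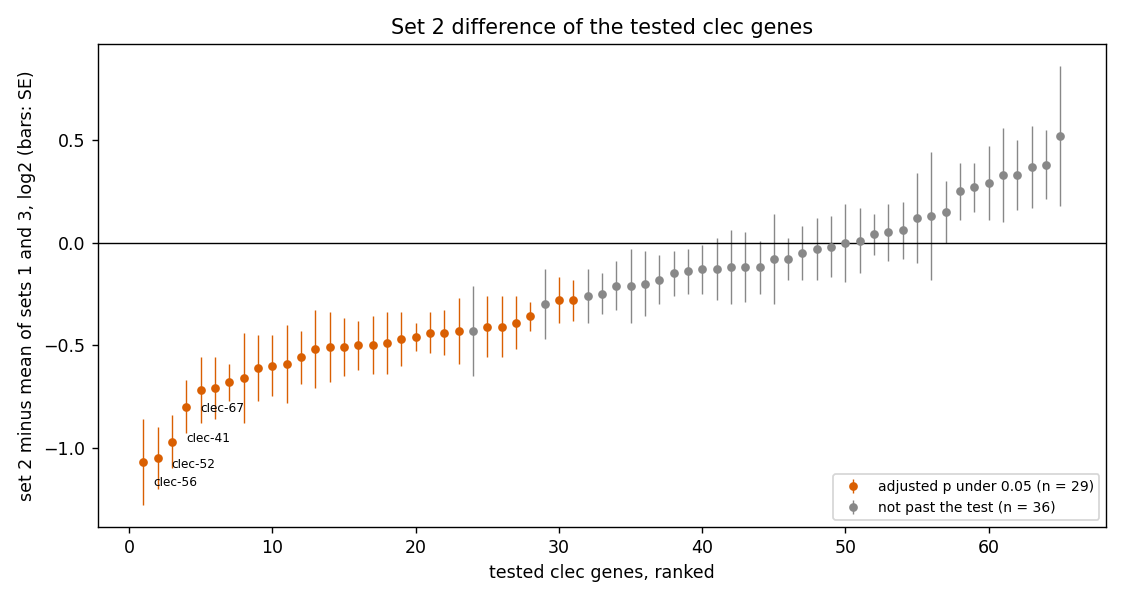
Log2 difference of set 2 from the mean of sets 1 and 3 for the 65 tested clec genes in rank order, with bars of 1 SE, called members in colour and the 4 lowest named. The 29 called members are all below 0, down to -1.07 for clec-56.

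Tissue markers moved with set 2 too, and their part in the clec result was not tested. Beside the counts below, 17.5% of all tested genes were lower in set 2 and 24.3% were higher. The summed signal of 10 intestine markers was 37645 to 42614 on the set 2 arrays and 48010 to 62657 on those of sets 1 and 3, with no overlap. Of these 10, 4 were lower in set 2: act-5, the actin of intestinal microvilli, at -0.76, the protease gene asp-1 at -0.70, the gut esterase ges-1 at -0.61 and the proton pump subunit vha-6 at -0.28. The intestinal GATA factor elt-7 was higher at 0.41 (limma adjusted p = 0.012). Of 37 sperm genes 12 were tested and 10 were lower, with sums of 4420 to 5526 in set 2 and 5825 to 7326 in the others. Of 15 yolk, oocyte and eggshell genes 9 were tested and 7 were lower, with sums of 2328 to 3002 against 3403 to 4362. Of the hypodermis markers 4 were tested and 2 were lower, the collagen genes dpy-13 at -0.29 and sqt-1 at -0.44. Of 5 pharynx markers the myosin genes myo-1 and myo-2 were lower at -0.53 and -0.79 and the troponin gene tnt-4 was higher at 0.38, with sums of 5737 to 6435 in set 2 and 6117 to 8247 in the others. In whole-worm RNA fewer cells of a type, or another age, and less RNA per cell cannot be told apart.

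Between set 3 and set 1 few members passed the test. Of 65 members 1, clec-67, was higher in set 3 (1.54%, against 0.329% of all tested genes), and 0 were lower, against 1.02% of all tested genes. At an unadjusted p under 0.05, 9 members were higher and 0 lower, where 7.02% of all tested genes were higher and 11.8% lower. clec-67 read 768.9, 2090.0 and 1928.7 in set 3 and 448.1, 378.3, 1198.8 and 868.1 in set 1, a log2 difference of 0.97 ± 0.16 with the group in the fit (limma adjusted p = 0.022). In both sets its marker arrays were higher than its HLH arrays, and the sets overlapped. The call was lost in 5 of 11 fits that left out 1 array, each of them an array of these 2 sets: the HLH code 1, marker code 3 or marker code 4 array of set 1, or either marker array of set 3. Limma adjusted p was then 0.055 to 0.12. Without the HLH code 1 array of set 3, 6 members were called, 3 higher in set 3 (clec-67, clec-265 and clec-4) and 3 lower (clec-76, clec-82 and clec-227). Set 3 then held marker arrays only. The share of all tested genes called in that fit is not given here, so the count is no result about the members. In 4 members (6.15%, against 4.04% of all tested genes) every set 3 array was above every set 1 array without a pass of the test: clec-173 at 0.65, clec-187 at 0.46, clec-52 at 0.30 and clec-50 at 0.26 (limma adjusted p = 0.083, 0.16, 0.40 and 0.16).

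No clec gene passed the test between the codes of a strain. Between HLH codes 2 and 1, 0 members were called, against 0.0319% of all tested genes, and 6 had an unadjusted p under 0.05, against 2.29% of all tested genes. The log2 differences of the members, code 2 minus code 1, ran from -0.96 to 0.59 with a median of -0.04. Between marker codes 4 and 3, 0 members were called, again against 0.0319% of all tested genes. There 1 member had an unadjusted p under 0.05, against 2.17% of all tested genes, and the differences ran from -0.54 to 0.70 with a median of -0.08. For the mean of both code differences 0 members were called, against 0.085% of all tested genes, with 7 at an unadjusted p under 0.05, against 4.33%. For the difference of the code differences 0 members were called, against 0% of all tested genes, with 0 members at an unadjusted p under 0.05, against 0.712%. The smallest limma adjusted p was 1 in all of these but the mean, where it was 0.55.

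Some members had no overlap between codes at limma adjusted p = 1 each: 8 in the HLH strain (12.3%, against 8.2% of all tested genes) and 2 in the marker strain (3.08%, against 5.23%). They are described here by their values alone. clec-258 read 880.5, 622.5 and 522.9 on the arrays of code 1 and 433.7, 308.0 and 294.0 on those of code 2, all of them lower, a log2 difference of -0.96 ± 0.29 (SE). In the marker strain it read 467.3, 256.1 and 421.8 in code 3 and 326.8, 183.3 and 274.6 in code 4, where the arrays overlapped and the log2 difference was -0.54 ± 0.29. The mean of both differences was -0.75 ± 0.20 (limma adjusted p = 0.55), and with the set as a replicate block, without the array of uncertain set, it was -0.70 ± 0.13 (limma adjusted p = 0.043). That was the only member called between codes under the block. The other members named by size in the HLH strain were clec-66 at -0.87, clec-186 at -0.60, clec-42 at -0.52, clec-88 at 0.59 and clec-221 at 0.34. In the marker strain they were clec-150 at -0.53 and clec-54 at 0.46.

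Of 15 measured clec genes known from infection studies 13 were tested, while clec-39 and clec-71 were too dim. Between the strains 3 of these were lower in the HLH strain, clec-60, clec-61 and clec-86, and 0 were higher, with a median log2 difference of -0.18. Of all tested clec genes 13.8% were lower and 0 were higher, and over all tested genes 1.7% were lower and 1.13% were higher. Of the 3, clec-61 entered the test through the marker arrays alone. Others of the list did not pass: clec-85, which depends on the p38 MAP kinase pathway in C. elegans, gave -0.09 ± 0.14 (limma adjusted p = 0.83). clec-70 gave -0.18 (0.71), clec-42 gave -0.15 (0.66) and clec-7 gave -0.15 (0.75). In set 2, 5 were lower, clec-41, clec-49, clec-52, clec-63 and clec-67, and 0 higher, with a median of -0.21. clec-60, clec-61 and clec-86 were not among them. In set 2, 44.6% of all tested clec genes were lower, and over all tested genes 17.5% were lower and 24.3% higher.

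Other groups of immune genes did not show one direction between the strains. Beside the strain counts below, 1.7% of all tested genes were lower in the HLH strain and 1.13% were higher. Of 76 other effector genes 52 were tested, and 5 were higher in the HLH strain: the antimicrobial peptide genes cnc-2 at 1.44, cnc-4 at 0.98 and cnc-6 at 1.55, with fipr-26 at 1.18 and irg-2 at 1.21 (limma adjusted p = 0.0003, 0.015, 0.033, 0.0043 and 0.019). Lower were irg-1, an infection response gene, at -0.94 and spp-8, which encodes a saposin-like protein, at -0.79 (limma adjusted p = 0.028 and 0.025). Of 20 immune regulators 19 were tested, and the adaptor gene tir-1 was higher at 0.54 (limma adjusted p = 0.041). Of 12 galectin genes, lectins of another fold, lec-4 was lower at -0.37 (limma adjusted p = 0.048). In set 2, 23 of the effectors were lower and 6 higher, and of the regulators 1 was lower and 11 higher. Over all tested genes 17.5% were lower in set 2 and 24.3% were higher.

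Tissue markers were also compared between the strains, and their part in the clec differences was not tested. None of the 10 intestine markers passed the test, with a median log2 difference of -0.24 and sums of 37645 to 52158 on HLH arrays and 42254 to 62657 on marker arrays. The nearest were the intestinal filament gene ifb-2 at -0.43 (limma adjusted p = 0.057) and elt-7 at -0.48 (0.11). Of 6 hypodermis markers 4 were tested and rol-6, a cuticle collagen gene, was higher at 1.05 (limma adjusted p = 0.00078). The plasmid pRF4 carries a mutant rol-6, so that signal can include the transgene and is no measure of hypodermis. Without rol-6 none of the other 3 tested passed, and the 5 measured had sums of 16536 to 23152 on HLH arrays and 16958 to 23896 on marker arrays. None of 5 pharynx markers or of the 12 tested sperm genes passed. Of the yolk, oocyte and eggshell genes cpg-2, a proteoglycan gene, was lower at -1.18 (limma adjusted p = 0.031).

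Many clec genes lie next to each other. With no other protein-coding gene between them in the RefSeq table, 97 members fell into 33 runs, the longest of 7 members. With up to 2 genes between them, 118 members fell into 37 runs. Few runs had more than 1 tested member: 10 tested pairs had no gene between them, and 23 had up to 2. The median gap in strain log2 difference was 0.164 in the 10 adjacent pairs, 0.409 in the 23 pairs and 0.404 in the 2057 other pairs of tested members. For set 2 those median gaps were 0.384, 0.378 and 0.354. Pairs share genes and arrays, so these are descriptions without a test, and neighbours with similar sequence can share probe signal.

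The pair clec-60 and clec-61 on chromosome II had strain differences of -1.67 and -1.83. ZK666.11 and ZK666.15 between them had no probe set of their own. In sets 1, 2 and 3 the strain difference was -2.28, -2.16 and -0.57 for clec-60. For clec-61 it was -1.54, -2.46 and -1.69, so the 2 genes were less alike in set 3. ZK666.4 on the far side of clec-60 gave 0.11 between the strains (limma adjusted p = 0.88), and clec-59 was not tested. For set 2 against the other sets clec-60 and clec-61 gave -0.43 and 0.29. clec-82 and clec-83 on chromosome IV, with 1 gene between them, were both lower in the HLH strain, at -1.77 and -0.62. On chromosome V clec-54 gave -0.91, its neighbour clec-56 -0.83, and clec-227 -0.42, while clec-57 in the same stretch gave 0.03. Of these only clec-54 passed without the block, as clec-56 and clec-227 had limma adjusted p of 0.28 and 0.36. Within sets 1, 2 and 3 clec-56 gave -0.46, -1.63 and -0.25. clec-55 beyond clec-54 was not tested, with mean signals of 33.4 on HLH and 62.5 on marker arrays. The chromosome II run of clec-62, clec-63, clec-65 and clec-66 gave -0.26, -0.31, -0.45 and -0.71, none of which passed without the block. Other neighbours differed: clec-67 and clec-70 gave -1.22 and -0.18, and clec-174 and clec-72 gave 0.28 and -0.83.

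Among the 9 called genes only clec-60, clec-86, clec-160 and clec-230 had tested non-lectin neighbours within 2 genes. Those neighbours mostly did not pass. Beside the other called genes, clec-61 and clec-82 included, no non-lectin neighbour was tested. The exception was wrt-8, a gene of the hedgehog-related warthog family 2 genes from clec-230. It averaged 249 ± 31.0 on HLH and 436 ± 88.8 on marker arrays (SD, n = 6), a log2 difference of -0.79 (limma adjusted p = 0.005). C29F3.3, which lies between wrt-8 and clec-230, gave 0.19 (limma adjusted p = 0.67). Beside clec-160, mig-10, a gene of cell migration, gave 0.23 (limma adjusted p = 0.62). Around clec-86, ist-1 gave -0.05, alh-10 gave 0.04 and lam-2, a laminin chain gene, gave 0.24 (limma adjusted p = 0.95, 0.94 and 0.64).

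**Figure D5:**
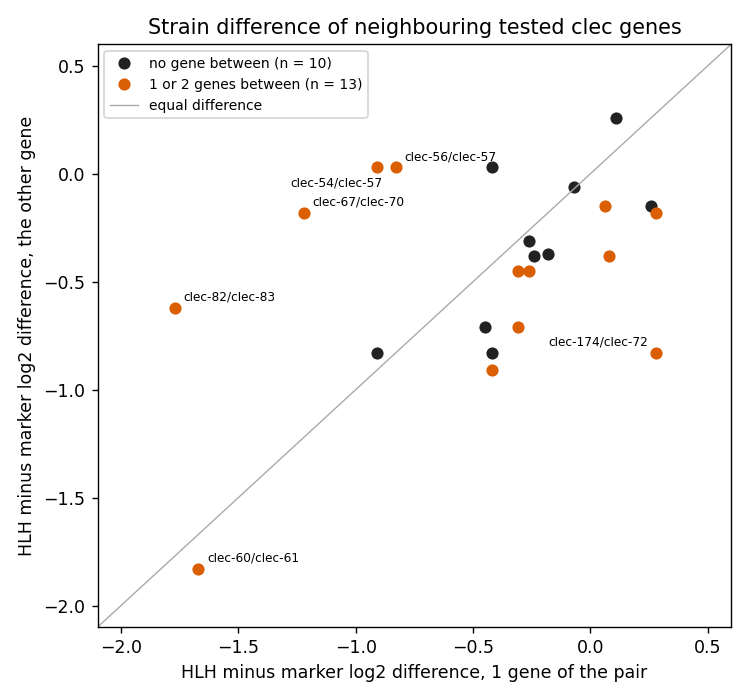
Strain difference, HLH minus marker on the log2 scale, of 1 tested clec gene against that of its tested neighbour, for the 10 pairs with no gene between and the 13 with 1 or 2 genes between, and the line of equal difference. The pair clec-60 and clec-61 lies near the line at -1.67 and -1.83, while clec-67 with clec-70 and clec-82 with clec-83 lie off it.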

How the data were processed

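The deposited values were array intensity on a linear scale, 1 signal per probe set and array for 22625 probe sets, made by the authors with MAS5, per the submitters' processing notes. No version or setting of MAS5 is given in the sources used here. The scaling of the deposited values was kept. Values below 16.7, the 10th percentile, were raised to it (0.0291% of tested values), and log2 was taken. MAS5 subtracts background, so ratios of dim signals are noisy. Control probe sets (77) did not enter, and 12328 probe sets above the array median on at least 3 of 12 arrays were tested, of which 71 belonged to members.

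Genes came from the platform annotation, with 20766 probe sets of 1 gene, 887 of several and 972 of none, and 20701 symbols were updated through the gene ID in the RefSeq table. Groups came from title codes. A model of 4 groups was fitted with limma 3.58.1 in R 4.3.3 (lmFit, eBayes with an intensity trend, 8 residual and 4.87 prior degrees of freedom). Tests were two-sided, with Benjamini-Hochberg adjustment over all 12328 tested probe sets within a comparison, and calls needed an adjusted p under 0.05. Counts over all genes use the brightest probe set per gene. Set comparisons used the 11 arrays of known set. The pairing by set rests on the titles and on the correlations given above. Only the strain comparison without a block was run on simulated data. The simulated noise was independent between arrays, so it lacked the pairing by set, and the set, block and F test fits were not simulated.

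The named genes were all members called in any comparison (where over 25, the 12 largest falls and rises), up to 4 rises and 4 falls without overlap per comparison, the 8 brightest, the infection list, and neighbours of called members. Members and lists were chosen with earlier results of these data known, so no list gives independent support. The infection, immune and marker lists came from background knowledge. Alternatives were no filter or a filter of 6 arrays, other floors, quantile normalization, the probe set with the smallest p, the set as a block, another placing of the array of uncertain set, no set 2 arrays, and leaving out each array. No sequences are printed because none were among the tables used here.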

Additional observations from a re-analysis of the deposited data

Results flagged for a closer look

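Of the clec genes 4 had a strain difference that was not the same in each set, by the limma F test on 11 arrays that was added after seeing the data. For clec-76 the adjusted p was 0.003, with HLH minus marker log2 differences of -1.73 in set 1, -2.33 in set 2 and 0.60 in set 3. For clec-60 it was 0.018, for clec-82 0.028 and for clec-227 0.031. Groups of 3 arrays are too small for a test of single outlying arrays.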

How the results depend on the processing

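The 9 members called between the strains became 4 with no filter, clec-28 with clec-54, clec-61 and clec-82 of the 9 genes. The set as a replicate block, without the array of uncertain set, gave 22 members and, with that array in set 3, 20, and both included the 9 genes. Leaving out 1 array gave 3 to 10. For the mean of both code differences, 0 members became 1 in both paired fits. The block changed no other count of calls. The 29 members lower in set 2 became 15 to 28 with 1 array left out. The 1 member of set 3 against set 1 became 0 with no filter and 0 to 6 with 1 array left out. The 4 members whose strain difference varied by set became 0 with no filter, 2 after quantile normalization, 7 with the array of uncertain set in set 3, and 0 to 4 over 10 fits with 1 array left out. The fit without the HLH code 1 array of set 3 could not be made, since set 3 then holds no HLH array. With no filter more probe sets enter the adjustment; the causes of the other changes were not tested. Of 161 alternative counts over 8 results 127 were within 1.5 times the reported count and 34 were not. The code comparisons, with 0 calls, moved only in the paired fits. Nearly all of the 34 thus fell on the results that had calls, so the pooled 127 overstates how stable those were. Of 940 alternative values of 51 gene differences 0 reversed and 165 lost the call. Of the 51, only the 9 strain, 29 set 2 and 1 set 3 differences had been called. The others had no call to lose, so 165 of 940 is not the share of calls lost. The calls of clec-61, clec-82 and clec-54 between the strains were kept in all 21 alternatives. clec-50 and clec-63 lost their set 2 calls after quantile normalization, at limma adjusted p of 0.064 and 0.084. Signals near background limit what can be seen in the 155 dim members.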
